A study of Homo sapiens with 2 samples.

Results

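The genes described here encode heat shock proteins and their DNAJ partners: every gene name in either list of m6A sites that begins with HSPA, HSPB, HSPD, HSPE or HSPH and a digit, with HSP90, or with DNAJA, DNAJB or DNAJC and a digit, leaving out hyphenated names and names that end as pseudogenes do. The rule found 44 genes of the 11406 named genes with a listed site, 43 of 10321 in replicate 1 and 42 of 10879 in replicate 2. They comprised 3 heat-inducible HSP genes (HSPA1B, HSP90AA1 and HSPD1), 14 other HSP genes and 27 DNAJ genes. All 44 names were found in the RefSeq annotation, where HSPB11 now carries the symbol IFT25, the name of a subunit of the intraflagellar transport machinery. Names left out by the rule were 24 of pseudogene form with 24 sites listed in both replicates, and 3 hyphenated ones with 2 such sites. Pseudogene names built on HSPA8, HSPD1, HSP90AA and HSP90AB were among them. How reads were divided between these names and the genes they resemble, HSPD1 and HSP90AA1 included, was not tested.

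The series measured N6-methyladenosine (m6A) in polyadenylated RNA of wild-type HEK293T cells, an established human embryonic kidney line, by GLORI. In that chemistry glyoxal and nitrite turn unmethylated adenosine into inosine, which is read as G, while m6A is still read as A. A site's m6A level is therefore the share of A among its A and G reads. The labels give 1 group of 2 replicates, both GLORI-treated wild-type cells with the same time label, and name no heat treatment and no second condition, so every comparison below is between sites, between genes or between the replicates.

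Replicate 1 listed 72449 sites with a median of 40 reads of A or G, and replicate 2 listed 81554 with a median of 42. No listed site had fewer than 15 reads, fewer than 5 A reads or a level under 10%. At 15 reads these limits admit only levels of 33.3% or more, so a gene of low coverage can show only its more methylated sites, and a gene with no listed site may lack methylation or depth. Over all 60462 sites that both replicates list, termed shared sites here, the mean chi-square of the A and G counts between replicates was 0.931. At these shared sites the libraries thus differed by no more than counting noise. Shared sites passed the limits in both replicates, which favours agreement, and of 93541 sites in either list the remainder were not compared. The replicates were counted as 1 sample, and each value is given for both replicates or as their mean with its counting error. The labels do not state whether the cultures were separate, and the intervals below cover counting error only, so spread between replicates may be technical.

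HSP70 proteins (HSPA genes) bind exposed hydrophobic stretches of client proteins in cycles of ATP hydrolysis, HSP90 proteins act later on a narrower set of clients, and HSPD1 with HSPE1 forms the mitochondrial chaperonin. DNAJ proteins (HSP40) bring clients to HSP70 and start its ATP hydrolysis through their J domain, and classes A, B and C differ in the domains around it. Under heat or other proteotoxic stress the transcription factor HSF1 binds heat shock elements in the promoters of the inducible genes, and m6A in heat shock mRNAs has been studied in mouse and human cells in connection with their translation under stress.

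The sites nearest the starts of these genes are shown first because their letters could be read from RefSeq promoter windows (GRCh38.p14), and because several lie on the annotated first nucleotide, where the cap-adjacent nucleotide m6Am also resists the reaction and is not told apart from m6A. The listed adenosine is in capitals, the sequences run 5′ to 3′ on the strand of the gene, and the first 7 genes have their listed site on the first nucleotide.
HSP90AA1 (chr14:102087034-102087054, minus): gtggcgcgtcAgttgcttcag
HSP90B1 (chr12:103930400-103930420, plus): cttgcggtgtAgtgggcggac
HSPA9 (chr5:138575391-138575411, minus): ggaggtttccAgaagcgctgc
HSPB11 (chr1:53945689-53945709, minus): cgaagatttcAgagttggagc
HSPA1B (chr6:31827728-31827748, plus): gcggtccggaAaacggccagc
DNAJC9 (chr10:73247245-73247265, minus): aaaaagaagcAgtcctgggtt
DNAJC7 (chr17:42017429-42017449, minus): cctcccacccAgctctctggt
HSP90AB1 (chr6:44247087-44247107, plus): ggcacgcagtAgctctctcga
DNAJA3 (chr16:4425855-4425875, plus): gcgcaggcgcAgagtccccgg
In HSP90AB1 the site lies 4 nucleotides before an annotated start, and in DNAJA3 it lies 3 nucleotides before one. These 9 were chosen for lying at or just before a start, and none stands in the DRACH context in which most m6A occurs (A, G or U, then a purine, the methylated A, a C, and any base but G). Elsewhere in the windows, 2 chaperone sites did: position 73247176 of DNAJC9, at 13.1% and 16.1%, and position 34929728 of DNAJC21, listed in replicate 2 alone at 16.7%. Position 78004955 of DNAJB4, 157337034 of DNAJB6 and 34929581 of DNAJC21, each listed in 1 replicate, did not. Over the whole lists, 7 of 569 listed sites at an annotated first nucleotide (1.23%) lay in DRACH, against 986 of 2031 listed sites (48.5%) elsewhere in such windows. The sites of HSP90AB1 and DNAJA3 before a start count among the latter.

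Of the shared sites, 5 of 184 in the chaperone genes (2.72%) lay on an annotated first nucleotide, in HSP90AA1, HSP90B1, HSPA9, HSPB11 and DNAJC9. Over all named genes this was 422 of 56106 shared sites (0.752%). HSP90AA1 had the highest first-nucleotide level of the 5, 52.4% of 399 reads and 56.4% of 470, at chromosome 14, position 102087044. The level was 30.8% and 29.8% in DNAJC9, 31.2% and 23.8% in HSPB11, 25.5% and 24.4% in HSP90B1, and 10.1% and 14.6% in HSPA9. HSPA1B was listed at its first nucleotide in replicate 1 alone, at 13.4% of 461 reads, and DNAJC7 in replicate 2 alone, at 13.2%. In HSPA9 and HSPB11 it was the only shared site, so their gene levels rest on it entirely.

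HSPA1B, which encodes a stress-induced cytosolic HSP70, carried the highest mean level of the inducible genes. Over its 7 shared sites on the plus strand of chromosome 6 the mean was 69.8% in replicate 1 and 68.9% in replicate 2 (69.4% ± 0.255, counting SE). Over all sites that replicate 1 lists in the gene the mean was 62.8%. Its deepest site, at position 31827872, 135 nucleotides from the annotated start counted from 1, was methylated at 86.4% of 3600 reads and 85.0% of 4104. The other 6 sites all lay between 589 and 323 nucleotides from the annotated end. Position 31829777 was read at 98.7% of 467 reads and 99.4% of 483, with a 95% Wilson interval of 98.2% to 99.5% on the summed reads.
Position 31829914 was read at 98.3% of 1263 reads and 98.0% of 1606. Position 31829931 followed at 96.2% and 94.9%. These 3 sites were nearly fully methylated. Between them lay lower ones, of which position 31829923, 8 nucleotides before the last of the 3, stood at 72.5% and 71.6%. The lowest 2 sites, 31829665 at 20.5% and 19.1% and 31829872 at 16.2% and 14.5%, lay among the high ones, with a site above 90% at 112 and 42 nucleotides from them.

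Reads of HSPA1B cannot be cleanly assigned. HSPA1A encodes the same protein from a neighbouring gene of nearly the same sequence, and it had no listed site; the authors' placement of reads that match both genes was not given in the sources used here. Deposited coverage of HSPA1B was 688.2 in replicate 1 and 668.0 in replicate 2, rank 84 of 10321 genes and rank 113 of 10879. Its deposited conversion, the share of adenosines read as G over the gene, was 92.4% and 92.5%, against a median over genes of 97.6% in both replicates. Only 55 genes (0.533%) in replicate 1 and 68 (0.625%) in replicate 2 had a lower conversion. The part of this lower conversion in the HSPA1B levels was not tested.

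HSP90AA1, the stress-inducible cytosolic HSP90, showed low levels apart from its first nucleotide. Its 6 shared sites on the minus strand of chromosome 14 averaged 22.7% in replicate 1 and 23.7% in replicate 2 (23.2% ± 1.02). Position 102086025 stood at 32.6% and 37.1%. The other 4 ranged from 10.7% to 15.4% in replicate 1 and from 11.3% to 13.04% in replicate 2, close to the 10% limit of the lists. Without the first nucleotide the mean was 17.0%.

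HSPD1, the mitochondrial chaperonin HSP60, had 3 shared sites on the minus strand of chromosome 2, with a mean of 32.2% in replicate 1 and 27.8% in replicate 2 (29.99% ± 1.62). Position 197487013, 429 nucleotides from the annotated end, was the highest at 44.6% of 890 reads and 42.3% of 1059. The remaining pair, 197487104 and 197497332, stood at 26% and 25.9% in replicate 1 and at 18.2% and 22.9% in replicate 2. None of the sites of HSPD1 or HSP90AA1 reached 80%, while 4 of the 7 sites of HSPA1B did.

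HSPA1A, HSPA6, HSPB1, HSPH1 and HSPE1 complete the list of 8 inducible genes and had no listed site in either replicate. Thus 3 of 8 inducible genes (37.5%) were listed, against 27 of 44 DNAJ genes (61.4%) and 9737 of all 20037 protein-coding genes of the annotation (48.6%). HSPE1, the co-chaperonin of HSPD1, appeared only within the read-through name HSPE1-MOB4, with 1 site at 16.9%.

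The inducible label was set against promoter sequence, which took no part in choosing the genes. A heat shock element of 3 units, GAANNTTCNNGAA on either strand, was searched in RefSeq windows from 250 bases before to 50 after each annotated start. It was present for 3 of 8 inducible genes (37.5%), 2 of 16 other HSP genes (12.5%), 2 of 40 DNAJ genes (5%) and 166 of all 27305 genes with a window (0.608%). The 13-base match is in capitals in the following stretches, 1 from an inducible gene with listed sites, 1 from an inducible gene without any, and 1 from a DNAJ gene.
HSP90AA1 (chr14:102087114-102087138, minus): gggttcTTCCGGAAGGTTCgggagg
HSPA6 (chr1:161524460-161524484, plus): gaaaggTTCGCGAAAGTTCgcggcg
DNAJA1 (chr9:33025270-33025294, plus): cgggcgGAACTTTCCAGAAcgctcg
HSPD1, HSPA8, HSP90AB1 and DNAJB6 also held the motif. The inducible genes HSPA1A, HSPA1B, HSPB1, HSPH1 and HSPE1 held no match, while HSPA8 and HSP90AB1, counted as constitutive, did. DNAJB1, described below as stress-induced, was also not among the genes with a match. The search took exact matches only, so it cannot decide the label for HSPA1B or the other genes without a match. In HSPD1 a pair of matches overlap each other. A match, or the lack of one, describes letters only.

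**Figure D1:**
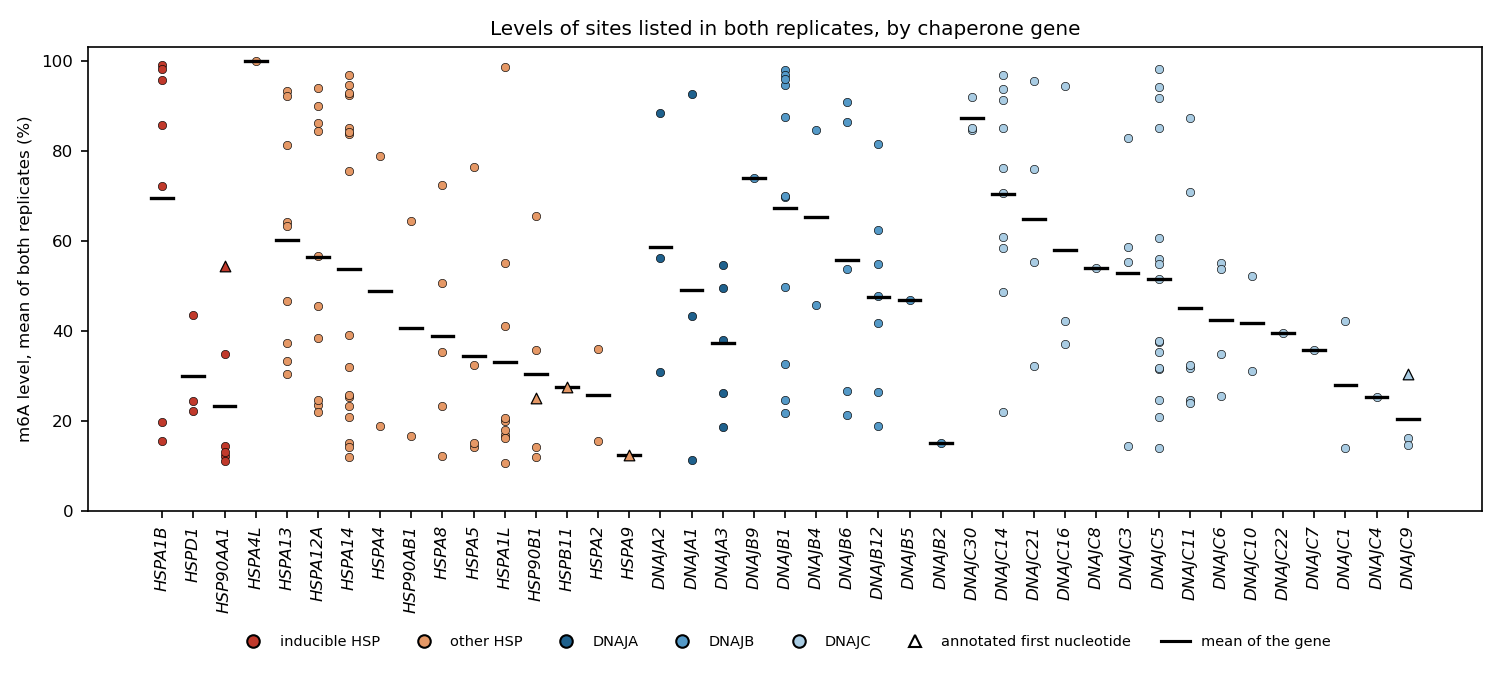
Levels of the 184 shared sites by gene (y axis, percent m6A, mean of both replicates); each point is a site, triangles are annotated first nucleotides, and bars are gene means. HSPA1B spans 15.4% to 99.0%, HSP90AA1 and HSPD1 stay at or below 54.4%, and most DNAJ genes with several sites span low and high levels.

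Among the constitutive cytosolic chaperones, HSPA8, the HSC70 that unfolded clients meet in unstressed cells, had 5 shared sites on chromosome 11 with a mean of 37.4% in replicate 1 and 40.1% in replicate 2 (38.7% ± 1.61). Its highest site, 123059681, stood at 79.1% of 196 reads in replicate 1 and 65.8% of 225 in replicate 2, the lowest unadjusted p of all chaperone sites between replicates (Fisher's exact test, p = 0.00322, adjusted p = 1). HSP90AB1, the constitutive cytosolic HSP90, had the highest deposited coverage of the 44 genes, 696.4 and 814.5, and only 2 shared sites. Its site before an annotated start stood at 62.4% of 101 reads and 66.4% of 125, and position 44253271 at 15.4% of 1007 reads and 17.7% of 1239. In replicate 1 alone, which lists 4 sites, its mean was 25.4%, against 40.5% over the shared sites. The site at or near the start was the highest shared site of HSP90AA1 and HSP90AB1, but not of HSP90B1, described below.

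HSPA1L, an HSP70 gene next to HSPA1A known mainly from testis, was listed with 9 shared sites and a coverage of 411.7 and 478.0, and its mean was 32.8% and 33.1% (32.9% ± 0.523). Position 31811272 was read at 98.9% of 441 reads and 98.4% of 508, while 6 of its sites lay between 10.5% and 20.5%. Its reads are uncertain for the same reason as those of HSPA1B, since the coding sequences are closely alike. HSPA4, an HSP110-type exchange factor, had 1 high and 1 low site, at means of 78.7% and 18.7%. HSPA4L, its relative, had 1 shared site, read as A in 17 of 17 and 25 of 25 reads. With all its listed sites it averaged 43.4% in replicate 1 alone and 46.2% in replicate 2 alone. HSPA2, an HSP70 known from male germ cells, averaged 25.7% ± 3.77 over 2 sites.

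HSPA14, a ribosome-associated HSP70, had the most shared sites of the 44 genes, 17 with levels from 11.9% to 96.8% and a mean of 53.6% ± 0.903. Of these, 16 lie within MSANTD7, an annotated gene on the same strand, so the gene they belong to is uncertain. HSPA12A, a distant HSP70 relative that is abundant in brain, averaged 56.4% ± 1.62 over 10 sites. HSPB8, a small heat shock protein that works with BAG3, was listed in replicate 1 alone, at 14 of 15 reads.

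In the endoplasmic reticulum, HSPA5 (BiP), the main HSP70 there, had 4 shared sites with a mean of 34.5% and 34.3% (34.4% ± 1.24). Position 125236470 was its highest at 75% of 200 reads and 77.5% of 231. HSP90B1 (GRP94) averaged 30.4% ± 1.43 over 5 sites. Its highest site, 103934079, stood at 71.9% of 32 reads and 58.8% of 34, above the first nucleotide, and its 2 deepest sites, 103947734 and 103947787, stood at 13.9% and 11.5% in replicate 1 and at 14.6% and 12.3% in replicate 2, 192 and 139 nucleotides from the annotated end. HSPA13, a microsomal HSP70 relative, was higher, with 9 sites from 30.3% to 93.2% and a mean of 60.1% ± 1.55.
Among the J-domain proteins of that compartment, DNAJB9 had 1 site at 73.9% ± 6.78, and DNAJC3 (P58IPK), an inhibitor of eIF2 alpha kinases, averaged 52.7% ± 2.62 over 4. DNAJC10, a J protein with thioredoxin domains, averaged 41.6% ± 2.46 over 2, and DNAJC1, which is anchored in the membrane, 27.9% ± 4.23 over 2. DNAJB11, a soluble partner of BiP, was listed in replicate 2 alone, at 12.7% of 63 reads. A chosen list of 9 genes stood for this compartment and may not hold all its chaperones. Over the 7 genes of that list with a shared site the median gene level was 41.6%, and they spread from 27.9% to 73.9%.

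The 5 mitochondrial chaperones with a shared site, from a chosen list of 9, spanned 12.3% to 87.2%, with uncertain ends. DNAJC30, a small mitochondrial J protein, had the highest mean over shared sites of the genes with at least 3, 88.5% in replicate 1 and 85.8% in replicate 2 (87.2% ± 2.83), from 15 to 39 reads per site and replicate. With all its sites listed in a replicate it averaged 65.2% in replicate 1, below the 68.2% of DNAJB1, and 66.4% in replicate 2, below the 68.9% of HSPA1B. Its conversion, 93.7% and 93.8%, was also below the median of all genes, and the part of that in its levels was not tested. HSPA9 (mortalin), the mitochondrial HSP70, was the lowest of all 41 genes with a shared site, at 12.3% ± 1.61. That level comes from its first nucleotide alone, where m6Am is not told apart from m6A. DNAJA3, its J-domain partner, averaged 37.3% ± 2.44 over 5 sites, with 43.8% and 55.0% at the site just before its start. DNAJC11, an outer-membrane-associated J protein, averaged 45.1% ± 1.81 over 6 sites.

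DNAJB1, the main stress-induced HSP40 and a partner of HSPA1A and HSPA1B, stood beside HSPA1B in level and not beside the other inducible genes. Its 11 shared sites on the minus strand of chromosome 19 averaged 68.2% in replicate 1 and 66.4% in replicate 2 (67.3% ± 1.003). Position 14516824 was read at 97.2% of 216 reads and 96.3% of 242, 14516881 at 94.9% of 79 and 96.6% of 89, and 14515920 at 95.7% of 140 and 93.2% of 176. As in HSPA1B, high and low sites were interleaved: 14516025, 105 nucleotides from the last of these, stood at 16.2% of 74 reads and 27.2% of 81. DNAJB1 also had a conversion below the median of all genes, 95.5% and 95.1%. DNAJA1, a farnesylated class A partner of HSC70, had 3 sites at 11.1%, 43.1% and 92.4%, with a mean of 48.9% ± 1.84.

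DNAJC5, the synaptic vesicle protein CSP alpha, had the most shared sites of the DNAJ genes. Its 16 sites on chromosome 20 averaged 52.4% in replicate 1 and 50.6% in replicate 2 (51.5% ± 1.09). Of its 3 highest sites with at least 50 reads, 63931633 was read at 96.4% of 55 reads and 100% of 65, 63931836 at 92.0% of 112 and 91.3% of 127, and 63932073 at 95.6% of 91 and 92.6% of 95. Between them stood 63931860 at 39.7% and 35.1%, 24 nucleotides from a site above 90%. Near the end of the gene, 63935006 stood at 83.9% and 86.1%, and its neighbour 63934996, 10 nucleotides away, at 14.8% and 26.8%.

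DNAJC14, a J protein linked to export of dopamine receptors, had 10 shared sites, all but 1 at 48.6% or more, for a mean of 72.4% in replicate 1 and 68.2% in replicate 2 (70.3% ± 1.58). DNAJC21, a factor of ribosome biogenesis, averaged 64.7% ± 2.96 over 4 sites. DNAJA2, a class A partner of HSC70, averaged 58.5% ± 1.87 over 3. DNAJB6, an inhibitor of polyglutamine aggregation, averaged 55.7% ± 1.80 over 5, and DNAJB12, a membrane-anchored J protein, 47.5% ± 2.68 over 7. DNAJC6 (auxilin), which uncoats clathrin vesicles, averaged 42.2% ± 3.03 over 4. The lowest DNAJ gene with at least 3 sites was DNAJC9, a J-domain histone chaperone, at 20.3% ± 2.21, including its first nucleotide, and at 15.4% without it. DNAJC13, an endosomal J protein, was listed in replicate 1 alone, at 5 of 16 reads. The other 8 DNAJ genes, DNAJB2, DNAJB4, DNAJB5, DNAJC4, DNAJC7, DNAJC8, DNAJC16 and DNAJC22, had 1 to 3 shared sites each and gene levels between 15% in DNAJB2 and 65.2% in DNAJB4. These levels depend on which sites enter. Over all sites that replicate 2 lists, DNAJB2 averaged 34.5% and DNAJB4 36.7%. On the same basis DNAJC22 averaged 63.3%, against 39.5% over shared sites, and DNAJC7 22.8%, against 35.6%.

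**Figure D2:**
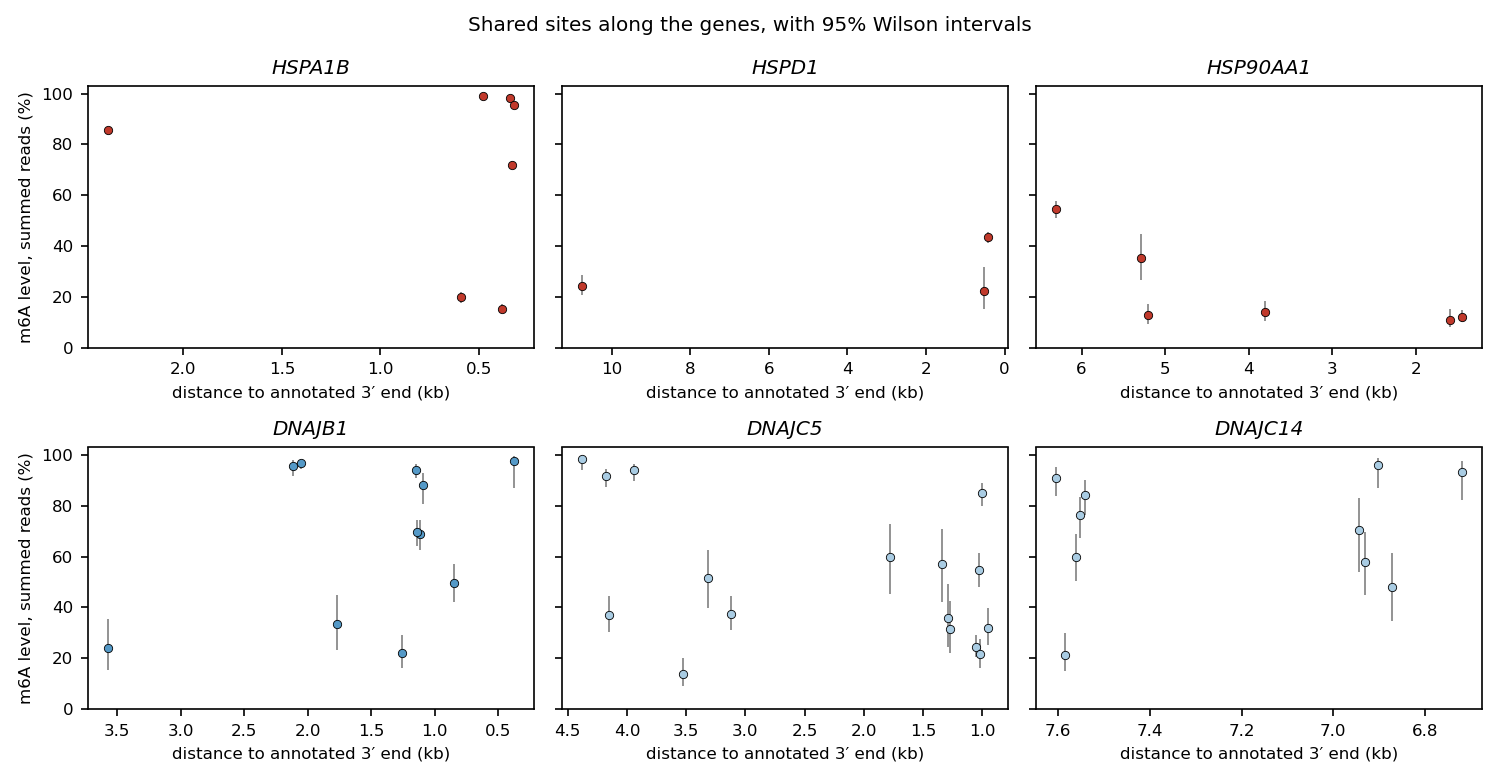
Shared sites of the 3 inducible HSP genes (top) and 3 DNAJ genes (bottom) against distance to the annotated 3′ end in kb (x axis) and m6A level of the summed reads (y axis, percent), with 95% Wilson intervals as lines. High and low sites are interleaved in HSPA1B, DNAJB1 and DNAJC5, and the first nucleotide of HSP90AA1, at 54.5%, is the highest of its sites.

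Inducible HSP genes had a median gene level of 29.99% (3 genes, 23.2% to 69.4%), against 48.9% for DNAJ genes (25 genes, 15% to 87.2%) and 46.6% for all 9521 named genes with a shared site. The difference of the medians, inducible minus DNAJ, was -18.9 percentage points, less than the spread among genes within either group. The inducible range lay within the DNAJ range, and genes are not replicates, so no test was made. With sites of at least 50 reads in both replicates, where 5 A reads no longer bound the level above 10%, the difference was -1.03 points, between medians of 33.9% for the 3 inducible genes and 34.97% for 12 DNAJ genes. With DNAJB1 and DNAJA1, which are also heat-induced, counted among the inducible genes, it changed sign to 1.36 points.

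Coverage moved with that comparison. The median deposited gene coverage was 256.8 in inducible HSP genes, 26.8 in DNAJ genes and 31.9 in all named genes, and the median site had 433 reads in replicate 1 for the inducible genes and 38.5 for the DNAJ genes. Sites under 20% made up 6 of 16 (37.5%) in inducible HSP genes, all in HSP90AA1 and HSPA1B. They made up 9 of 100 (9%) in DNAJ genes and 8508 of 56106 (15.2%) over all named genes. With at least 50 reads in both replicates these shares were 42.9%, 13.5% and 26.6%. At the other end, sites of 80% or more made up 4 of 16 (25%) in inducible HSP genes and 26 of 100 (26%) in DNAJ genes. Over all named genes they made up 20.1%. With at least 50 reads in both replicates these shares were 28.6%, 24.3% and 15.7%. Against the genes of its own coverage decile, HSPA1B lay above the median level (69.4% against 31.0%), HSPD1 (29.99% against 31.0%) and HSP90AA1 (23.2% against 37.5%) lay below it, and 12 of 25 DNAJ genes lay above theirs. All 3 inducible genes had more shared sites than their decile's median, as did 8 of 25 DNAJ genes, while 12 had fewer. The counts were 7 against 2 in HSPA1B, 6 against 4 in HSP90AA1 and 3 against 2 in HSPD1. Over all 9521 named genes, 4760 lay above the level median of their decile, and 4297 had more sites while 4149 had fewer.

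**Figure D3:**
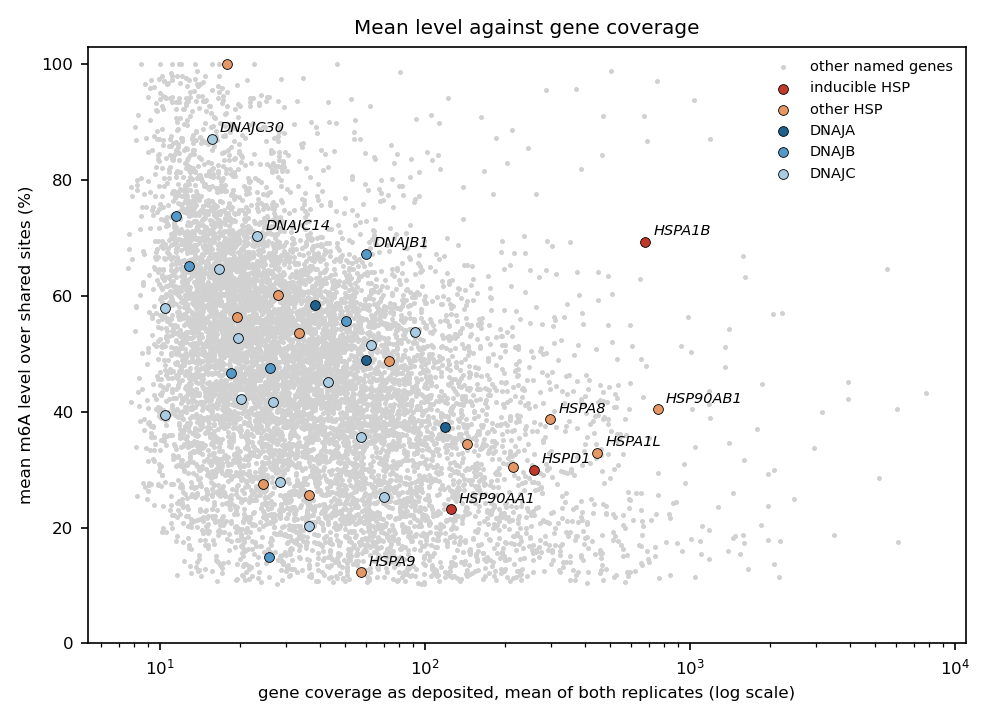
Mean m6A level over shared sites (y axis, percent) against deposited gene coverage (x axis, log scale, mean of both replicates) for the chaperone genes in colour and all other named genes in grey. HSPA1B, at 69.4% and a coverage of 678.1, lies above most genes of like coverage, and no DNAJ gene exceeds a coverage of 118.8.

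The J-domain classes overlapped. Median gene levels were 48.9% for 3 DNAJA genes, 55.7% for 7 DNAJB genes and 45.1% for 15 DNAJC genes, and each class held genes on both sides of the median of all named genes. The 13 other HSP genes had a median of 38.7% and ranged from 12.3% to 100%, the upper value being the single shared site of HSPA4L. Over all 41 chaperone genes with a shared site the median was 46.8%, beside 46.6% for all named genes, and 22 exceeded the typical level of their coverage decile while 19 did not reach it.

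Between the replicates, none of the 184 chaperone sites was called different (Fisher's exact test, two-sided, Benjamini-Hochberg adjusted over all 60462 shared sites), and the share called over all shared sites was 0%. With adjustment over so many sites, shallow sites could hardly be called. Position 78013082 of DNAJB4, at 65% of 20 reads in replicate 1 and 26.3% of 19 in replicate 2, was not. At an unadjusted p under 0.05 there were 6 of 184 chaperone sites (3.26%), against 3.06% of all shared sites. A chi-square test scaled by the dispersion between replicates called 0 after adjustment; before it, it called 8 of 184 chaperone sites, against 3059 of all 60462. The 6 sites lie in HSPA8, HSPA12A, HSPA1L, DNAJA3, DNAJB4 and DNAJC10. They were named after their values were seen, and 4 of them were higher in replicate 1. Of the 290 chaperone sites in either list, 63.4% were shared, against 66.1% of sites in all named genes.

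**Figure D4:**
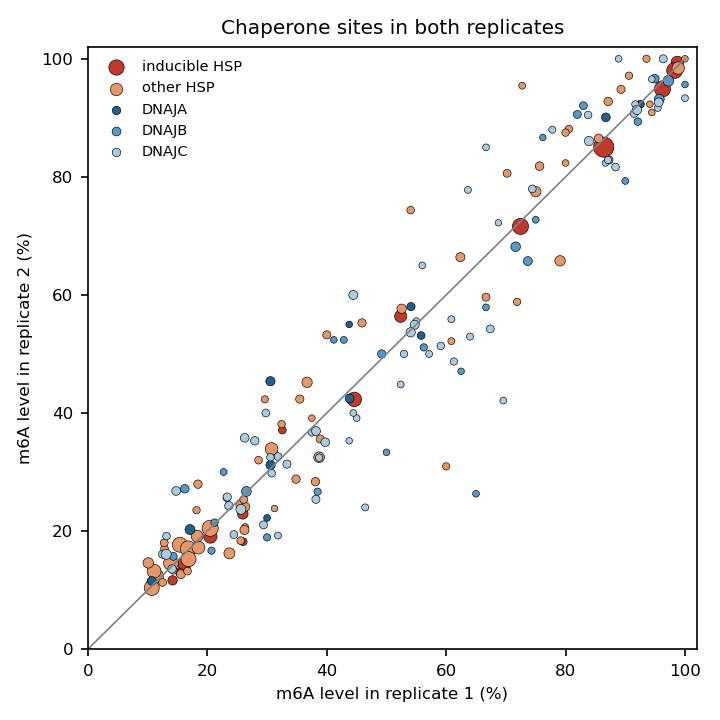
m6A level in replicate 2 (y axis, percent) against replicate 1 (x axis, percent) for the 184 shared sites, with the line of equality; larger points have more reads. The deep sites of HSPA1B lie on the line, and the points farthest from it have few reads.

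By position, 8 of 16 shared sites in inducible HSP genes (50%) lay within 1 kb of the annotated 3′ end of the gene, against 15 of 100 in DNAJ genes (15%) and 22.7% over all named genes. Of those 8, 6 belong to HSPA1B, a short gene without introns, and 2 to HSPD1. HSP90AA1 had none. Distance was counted along the genome, introns included, to the end of the annotated gene span. The transcript end used in these cells was not determined. Shared sites of DNAJC14, for example, lay 6720 to 7604 nucleotides from that annotated end.

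Other genes of the chaperone network were read from a list of 42, of which 35 were listed and 32 had shared sites, 131 in all. Their median gene level was 34.3%, below the 46.8% of the HSP and DNAJ genes, at a median coverage of 117.1 against 36.6, and 20 of 32 were lower than their decile's median. BAG3, a co-chaperone of HSP70 in selective autophagy and itself heat-induced, had the most sites, 13 with a mean of 35.7% ± 1.30. SERPINH1, the collagen chaperone HSP47, had 11 at 33.5% ± 0.963. AHSA2P, a relative of the HSP90 activator AHSA1 with a name of pseudogene form, had 10 at 39.1% ± 1.02. Names of that form were left out of the HSP and DNAJ genes but not of this list. GRPEL2, a mitochondrial nucleotide exchange factor, had 9 at 48.3% ± 1.57, and SIL1, the exchange factor of BiP, 8 at 49.3% ± 1.61. HSF1, the regulator of the heat shock response, averaged 35.1% ± 1.605 over 5 sites.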

How the data were processed

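Each replicate has 1 deposited list of called sites. Its lines hold, per the file headers, the count of A and G reads, the A count and their ratio, a fraction that equalled A over A plus G within 5e-06, with a p-value, its adjusted value, and a conversion fraction and coverage signal per gene. The build GRCh38 and the tools STAR, Bowtie, SAMtools and Trim Galore 0.6.6 are credited to the submitters' processing notes; site caller, annotation and treatment of reads with several matches were not given in the sources used here. Listed reads of A or G totalled 5221660 and 6306522.

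Gene levels were averaged over shared sites from both replicates' levels, with a binomial counting error that does not cover the choice of sites. Replicates were compared by Fisher's exact test with Benjamini-Hochberg adjustment at 0.05 (SciPy 1.17.1, pandas 2.3.3, Python 3.11.15). The test was tried on simulated data in which only deep sites were moved, so its power at shallow sites was not measured. Gene spans and sequences came from RefSeq (GRCh38.p14), which matched 11179 of 11406 names (98.0%). Members and gene lists were chosen with earlier results of these data known. Named were all inducible HSP genes, other HSP genes with a shared site, DNAJB1, DNAJA1, the DNAJ genes with most sites or extreme levels, those of the endoplasmic reticulum and mitochondria, genes listed in 1 replicate, and the 6 network genes with most sites, of which 1 is not reported here, with HSF1; for each gene the most methylated site with at least 50 reads was preferred. Further sites of those genes were chosen after their values were seen. Cell identity markers, UTR positions and base context beyond promoter windows were not analysed here. Alternatives comprised minimums of 30 and 50 reads, a 20% level minimum, each replicate alone, sites of either list, read-weighted levels, heat-induced DNAJ genes regrouped and HSPA1B left out. Added after seeing the data were leaving out first-nucleotide sites and sites in overlapping genes.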

Additional observations from a re-analysis of the deposited data

How the results depend on the processing

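Over 7 summary results and 13 alternatives, 34 values stayed within a margin, 23 moved and 1 reversed; the margin was the SD between the replicates' values over shared sites for levels, and 1.5 times either way for site counts. The inducible HSP median of 29.99% was 33.9% with sites of at least 50 reads, 44.6% with levels of at least 20%, 39.1% read-weighted, 48.9% with DNAJB1 and DNAJA1 included and 26.6% without HSPA1B, and 27.8% to 32.2% with each replicate alone. The DNAJ median of 48.9% was 39.95% with sites of at least 30 reads, 34.97% at 50, 54.8% with levels of at least 20%, 40.2% with sites of either list, 44.6% read-weighted, 47.5% without DNAJB1 and DNAJA1, and 43.2% to 44.7% with each replicate alone. Their difference of -18.9 points was -9.96 at 30 reads, -1.03 at 50, -10.2 with levels of at least 20%, -10.2 with sites of either list, -5.46 read-weighted, -16.9 to -11.0 with each replicate alone, and reversed to 1.36 with DNAJB1 and DNAJA1 counted as inducible. Without HSPA1B the difference widened to -22.3 points. The median of 6 shared sites per inducible gene was 2 with levels of at least 20%, and that of 3 per DNAJ gene was 5 with sites of either list. The 184 shared sites were 89 at 50 reads and 290 with sites of either list, and each replicate alone gave 224 to 250. Most gene levels were lower over the full list of 1 replicate than over shared sites. With replicate 2 alone 31 of 41 genes were lower and 10 higher (median shift -2.52 points). With replicate 1 alone 29 were lower and 12 higher (median shift -2.25 points). Single genes moved more. With sites of at least 50 reads, 25 genes remained, 9 lower and 7 higher, with shifts from -38.4 points (DNAJC3) to 31.5 points (HSPA12A). Read-weighted, 27 of 41 genes were lower and 13 higher, with shifts from -19.4 points (HSP90AB1) to 9.11 points. The counting errors given with the gene levels do not cover such shifts. HSPA13, at 60.1% over shared sites, was 54.1% and 51.9% in replicates 1 and 2 alone, and HSPA14, at 53.6%, was 52.0% and 47.2%. No chaperone site passed the replicate test under any alternative run. Why the values moved was not tested, beyond the fewer or added sites that each alternative enters by construction.

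The lists hold no sites under 10%, so levels and counts of shallow genes are bounded by depth, and 3 inducible genes carry the comparison. Sites restricted to DRACH and shares of sites in DRACH or 3′ UTRs were not run, since no genome of the build was at hand. No paired analysis was possible because the labels give a single group.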
